A study of Sus scrofa with 12 samples.

Results

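Interferon response and chemokine genes were followed in Day 9 pig embryos, on two-colour arrays that set embryos of 2 mating strategies against each other. The rule that picks the genes reads their symbols and no measured value. They are the array's genes whose symbols begin as those of the IFI, IFIT and IFITM, ISG, OAS, MX and GBP genes, the IRF and STAT factors, the interferon receptors, and the CXCL and CCL chemokines. Such symbols belonged to 54 of the 11905 named genes, measured by 72 of 43769 probes. They comprised 16 interferon-induced effectors, 7 IRF genes, 5 STAT genes, the interferon gamma receptor gene IFNGR1, 7 CXCL genes and 18 CCL genes. The rule also takes in 4 genes that share a name more than a place in the pathway: IRF2BP1 and IRF2BP2 code for corepressors that bind IRF2, ISG20L2 for a nuclear exonuclease, and IFITM5 for a protein of bone-forming cells. ISG15 and the IFNAR subunits were not analysed here.

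All sows were primiparous and had been brought into oestrus during lactation, and the title names intermittent suckling. FE sows were inseminated at that oestrus, and SE (skip-a-heat) sows at the oestrus after it. Embryos of 3 FE and 3 SE sows were recovered 9 days after ovulation and sexed by PCR, and each sow gave 1 pool of 5 male and 1 pool of 5 female embryos. In each of 6 sets, 3 male and 3 female, an FE and an SE pool of 1 sex were hybridised together on a first array and again on a dye-swap array. Male sets 1 and 2 lay on slide 1, female sets 1 and 2 on slide 2 and set 3 of either sex on slide 3, and below the values of a sex are always given for its sets 1, 2 and 3 in that order.

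The values are log2 ratios of FE and SE embryos. On the 2 arrays of a set they ran in opposite directions as deposited, with Pearson's r over probes of -0.149 in male set 1 to -0.766 in female set 3, so the swap arrays were turned in sign and the arrays of a set averaged. A positive ratio has the sign of the first arrays. The labels name the same dye for FE on every array, which contradicts a swap, and the numerator channel is not given in the sources used here. Whether a gene was higher in FE or in SE embryos is therefore not stated, and all signs below may turn together. Because the values are ratios, they give neither the level of a gene nor whether its signal stood above background, and markers could not be used to check the labelled tissue. In pooled embryos, fewer cells of a type and less RNA per cell cannot be told apart.

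Interferons act through paired receptor chains, whose Janus kinases phosphorylate STAT proteins. STAT2 and IRF9 act together to switch on the genes of antiviral effectors, while interferon gamma induces IRF1. In the pig, the conceptus itself secretes interferon gamma and interferon delta as it elongates and attaches, and the endometrium answers with interferon-stimulated genes. Chemokines are small secreted proteins that draw leukocytes, and CXCL9, CXCL10 and CXCL11 are classical targets of interferon gamma.

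Whether FE and SE embryos differed in these genes was asked first over both sexes together. Among the 54 genes the largest mean ratios belonged to IFITM1, an interferon-induced membrane protein that blocks virus entry, at -0.64, to the chemokine gene CXCL16 at -0.38 and to OAS1, which codes for a double-stranded RNA sensor that makes 2′-5′ oligoadenylates, at 0.36. None of the 54 passed limma's test over all genes (adjusted p of 0.949 or more), and 0% of the 11905 named genes did. An unadjusted limma p under 0.05 was found for 3 of the 54, IFITM1, OAS1 and IRF2BP2, and for 5.06% of all genes. Of the 54 mean ratios 25 were positive and 29 negative, with a median of -0.02 beside -0.01 over all named genes, and 45.7% of all genes were positive. A single gene, IFITM1, had a mean over 1.5-fold in size, which 0.328% of all genes had.

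**Figure D1:**
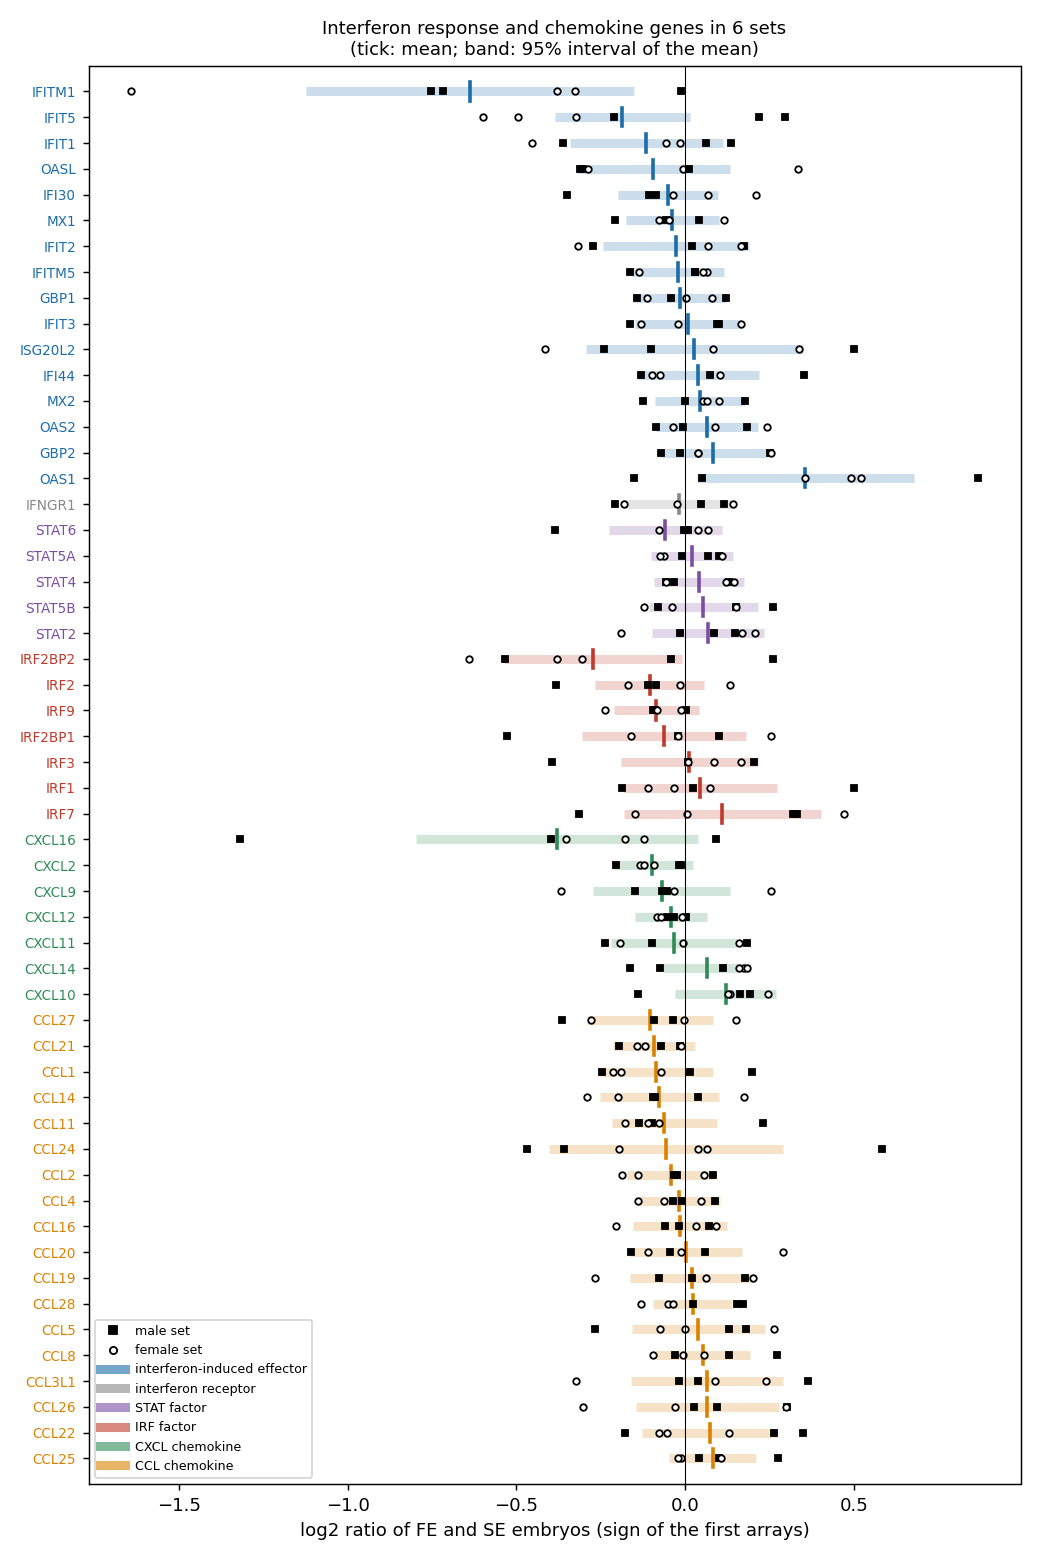
Log2 ratio of FE and SE embryos (x axis, sign of the first arrays) for each of the 54 genes (rows, coloured by class and sorted by mean within it) in 3 male sets (filled squares) and 3 female sets (open circles), with the mean of 6 sets (tick) and limma's 95% confidence interval (band). Most genes lie within a narrow band around 0, while IFITM1 reaches -1.64 in female set 1, CXCL16 -1.32 in male set 3 and OAS1 0.87 in male set 1.

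How precisely the mean ratio of each gene was measured was read from limma's 95% confidence interval, which treats the 6 sets as independent, whereas each sow contributed to a male and a female set. The interval lay within a 1.5-fold difference for 51 of the 54 genes (89% of all named genes) and within a 2-fold difference for 53 of them (98.6% of all). The exceptions at 1.5-fold were IFITM1 (-1.12 to -0.15), CXCL16 (-0.80 to 0.04) and OAS1 (0.03 to 0.68), and the one at 2-fold was IFITM1. The SD over the 6 sets had a median of 0.166 among the 54 genes and of 0.178 among all named genes. IFITM1 at 0.563 had the largest SD of the 54, and CXCL12, the ligand of CXCR4, the smallest at 0.0343. The value for CXCL12 is that of the mean of 3 probes, whose own SDs were 0.070 to 0.116. Pearson's r between these probes fell to -0.923, and the arrays of a set agreed in sign in 1 of 6 sets.

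**Figure D2:**
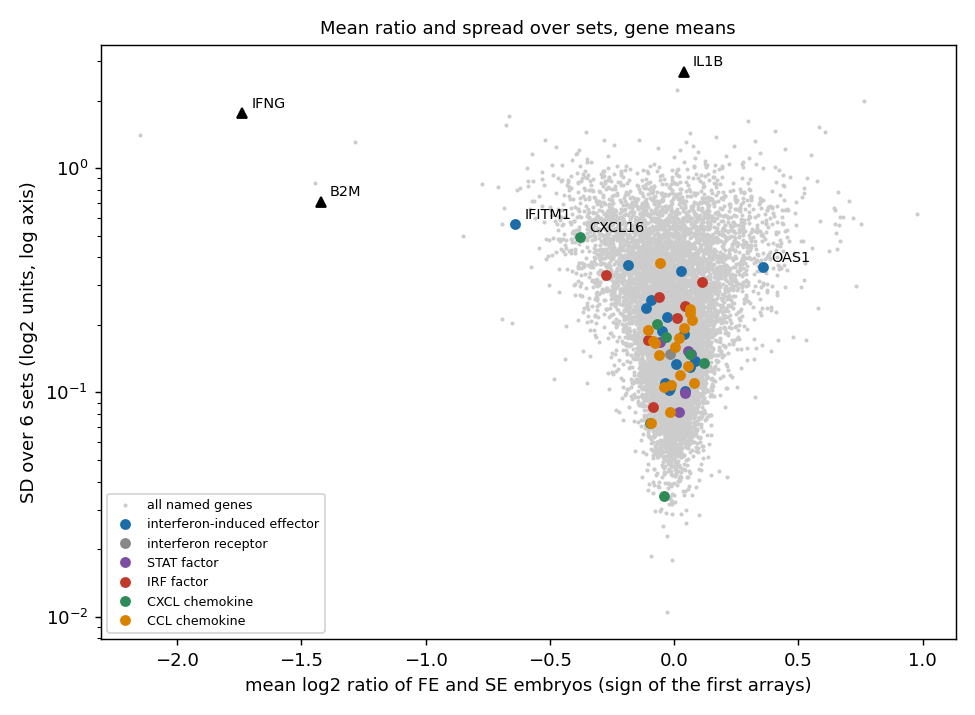
Mean log2 ratio over 6 sets (x axis, sign of the first arrays) and SD over the 6 sets (y axis, log scale) for all 11905 named genes (grey) and for the 54 interferon response and chemokine genes (coloured by class), with IFNG, B2M and IL1B as triangles. The coloured points lie among the grey ones, with IFITM1 at -0.64 and 0.563 at their upper left edge, while IFNG lies at a mean of -1.74, B2M at -1.42 and IL1B at an SD of 2.69.

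IFNGR1, the ligand-binding chain of the interferon gamma receptor, had 0.12, -0.21 and 0.05 in males and -0.02, 0.14 and -0.18 in females. Positive and negative sets were equal in number, and the mean was -0.02 ± 0.15 (log2 ratio ± SD, n = 6 sets, with a limma adjusted p = 0.993). The 5 STAT genes had mean ratios of -0.06 to 0.07. STAT2, the partner of IRF9, had 0.08, 0.15 and -0.01 in males and -0.19, 0.17 and 0.21 in females. STAT6, which carries interleukin-4 signals, had -0.38 in male set 2 and values of -0.08 to 0.07 in the other 5 sets. STAT5B, which carries growth hormone and prolactin signals, had -0.08, 0.26 and 0.15 in males and -0.04, 0.15 and -0.12 in females. Each of these genes had sets of both signs.

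Among the IRF genes, IRF2BP2 had -0.53, -0.04 and 0.26 in males and -0.31, -0.64 and -0.38 in females. Male set 3 was positive and the other 5 sets were negative. The mean was -0.27 ± 0.33 (SD over 6 sets, with a limma adjusted p = 0.956), and by slide -0.29, -0.47 and -0.06. Without male set 1 it was -0.17. IRF7, the master factor of type I interferon induction, had 0.32, 0.33 and -0.32 in males and 0.01, 0.47 and -0.15 in females, with a mean of 0.11 ± 0.31 that ran from 0.02 without female set 2 to 0.22 without male set 3. IRF2BP1 had 0.10, -0.02 and -0.53 in males and -0.02, 0.25 and -0.16 in females. Both genes were lowest in male set 3 and highest in female set 2.

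IRF7 and IRF2BP1 also showed a gap between first and swap arrays. The mean of IRF7 was -0.23 over the first arrays and 0.45 over the turned swap arrays, and that of IRF2BP1 was -0.48 and 0.36. For IRF7 the arrays of a set agreed in sign in 2 of 6 sets, and for IRF2BP1 in 1 of 6. The part of dye in these values was not tested. IRF9 had -0.09, 0.00 and -0.09 in males and -0.24, -0.08 and -0.01 in females, and its arrays agreed in sign in 0 of 6 sets. IRF2, a repressor that competes with IRF1, had -0.11, -0.09 and -0.38 in males and -0.17, 0.13 and -0.01 in females, and its arrays agreed in sign in 1 of 6.

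**Figure D3:**
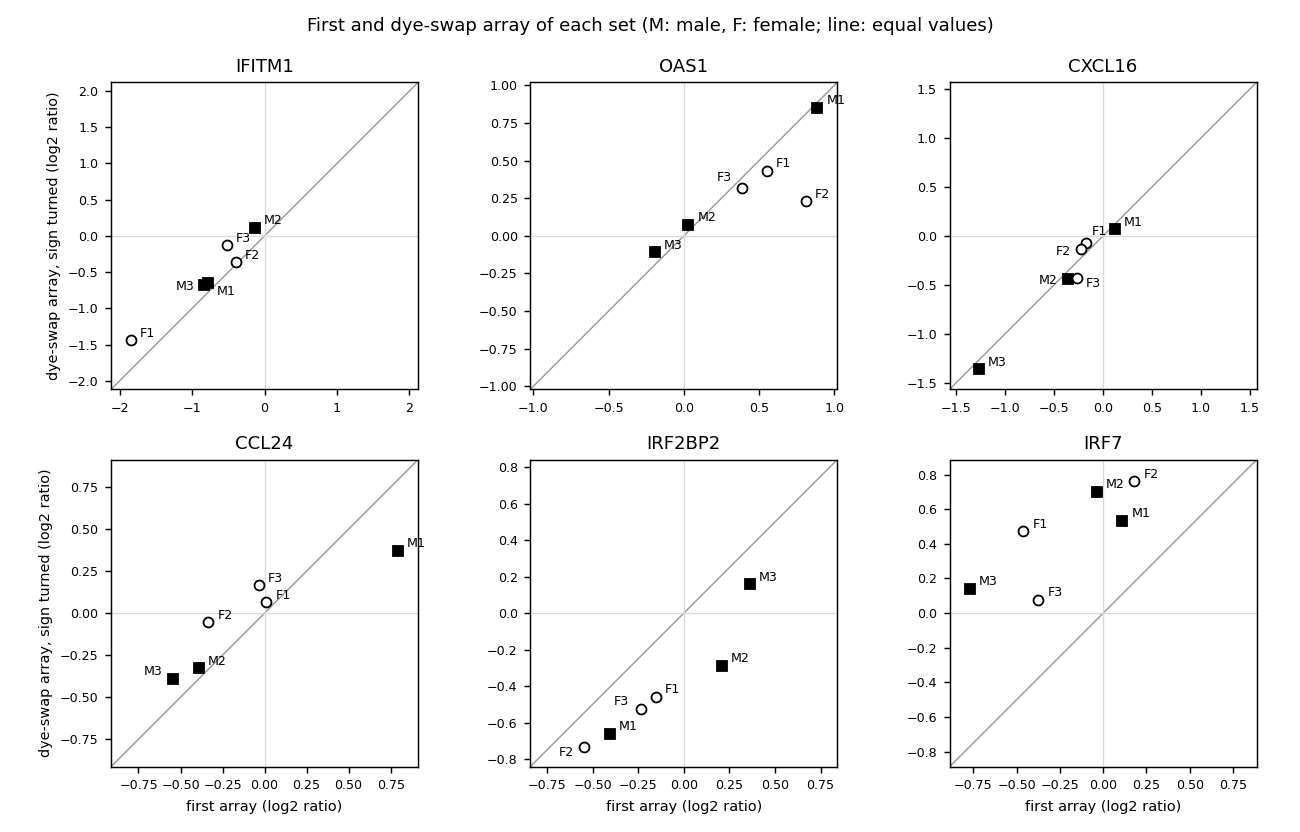
Log2 ratio on the first array (x axis) and on the dye-swap array with its sign turned (y axis) for 6 genes, with 1 point per set (filled squares, male; open circles, female) and the line of equal values. CXCL16 lies along the line, with -1.27 and -1.36 in male set 3. IFITM1 and OAS1 depart from it in some sets, with -0.52 and -0.13 for IFITM1 in female set 3. OAS1 had 0.81 and 0.23 in female set 2. All 6 sets of IRF7 lie above the line.

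Among the effectors, IFITM1 had ratios of -0.72, -0.01 and -0.75 in males and of -1.64, -0.38 and -0.33 in females. All 6 sets were negative, but male set 2 lay close to 0 and female set 1 far below the others. The mean was -0.64 ± 0.56 (SD over 6 sets, with a limma adjusted p = 0.949). By slide the mean was -0.36, -1.01 and -0.54 on slides 1, 2 and 3. The first and the swap array agreed in sign in 5 of 6 sets, with -0.13 and 0.11 in male set 2. Without female set 1 the mean was -0.42, just over 1.5 times nearer to 0.

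OAS1 had 0.87, 0.05 and -0.15 in males and 0.49, 0.52 and 0.35 in females. The means of the 3 female sets lay close together, and male set 1 and male set 3 lay above and below them. The arrays of female set 2 lay apart, with 0.81 on the first and 0.23 on the turned swap array. The mean was 0.36 ± 0.36 (SD over 6 sets, with a limma adjusted p = 0.949), and 0.20 without male set 1. By slide it was 0.46, 0.51 and 0.10. Both arrays of a set agreed in sign in 6 of 6 sets for OAS1 and CXCL16 alone among the 54 genes, as they did for 9.27% of all named genes. OAS2, of the same family and enzyme activity, had a mean ratio of 0.07, and OASL, whose human protein lacks that activity, had -0.09.

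IFIT5, whose human protein binds the 5′ ends of foreign RNA, had 0.22, -0.21 and 0.30 in males and -0.50, -0.32 and -0.60 in females. The female sets were all negative and lay below every male set. Its mean over both sexes was -0.19 ± 0.37 (SD over 6 sets, with a limma adjusted p = 0.956), and -0.11 without male set 2. The other IFIT genes of the same cluster had mean ratios nearer to 0, with -0.11 for IFIT1, -0.03 for IFIT2 and 0.01 for IFIT3. ISG20L2 had -0.10, 0.50 and -0.24 in males and 0.08, 0.34 and -0.41 in females, with a mean of 0.03 ± 0.35. Its male and female values were alike in order, highest in set 2 and lowest in set 3.

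None of the antiviral GTPase genes passed a test of strategy, sex or set. MX1 had a mean ratio of -0.04 and MX2 of 0.05, the guanylate-binding genes GBP1 and GBP2 had -0.02 and 0.08, and IFI44 had 0.04. IFI30, a thiol reductase of antigen processing, had -0.05. Over the 16 effectors 7 means were positive and 9 negative, and the median was -0.02.

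CXCL16, which is both a membrane-bound scavenger receptor and a chemokine for CXCR6 cells, had 0.09, -0.40 and -1.32 in males and -0.12, -0.18 and -0.35 in females. Male set 3 lay far below the other 5, and its 2 arrays gave -1.27 and -1.36. The mean was -0.38 ± 0.49 (SD over 6 sets, with a limma adjusted p = 0.956), and -0.19 without male set 3. By slide it was -0.15, -0.15 and -0.83.

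The interferon-gamma-induced chemokines CXCL9, CXCL10 and CXCL11, which neighbour each other in the RefSeq annotation, had mean ratios of -0.07, 0.12 and -0.03. CXCL10 had -0.14, 0.16 and 0.19 in males and 0.13, 0.25 and 0.13 in females, so that male set 1 alone was negative. CXCL9 had -0.15, -0.07 and -0.05 in males and 0.26, -0.37 and -0.03 in females. CXCL2, a neutrophil attractant, was negative in all 6 sets at -0.20 to -0.01, with a mean of -0.10 ± 0.07 (SD over 6 sets, with a limma adjusted p = 0.956). This held for the mean of its 3 probes. By itself 1 probe was negative in all 6 sets, 1 was positive in 2 sets, and 1 had 3 sets of each sign.

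The 18 CCL genes had mean ratios of -0.10 to 0.08, with 9 positive and 9 negative. CCL24, an eotaxin that draws eosinophils, varied most, with 0.58, -0.36 and -0.47 in males and 0.04, -0.19 and 0.06 in females. Male set 1 was the highest and male set 3 the lowest, and the mean was -0.06 ± 0.38 (SD over 6 sets, with a limma adjusted p = 0.991). The mean was above 0 without male set 2 (0.01) or male set 3 (0.04) and was -0.22 without male set 1. CCL26, its neighbour and fellow eotaxin, had 0.10, 0.03 and 0.30 in males and -0.30, -0.03 and 0.30 in females. CCL21, the lymph node chemokine of CCR7 cells, was negative in all 6 sets at -0.20 to -0.01, with a mean of -0.09 ± 0.07. Its arrays agreed in sign in 2 of 6 sets, with a mean of 0.055 over the first and -0.24 over the turned swap arrays.

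CCL25, which homes cells to the thymus and gut, had 0.28, 0.04 and 0.10 in males and 0.11, -0.01 and -0.02 in females. CCL27, a skin chemokine, had -0.09, -0.04 and -0.37 in males and 0.00, 0.15 and -0.28 in females. CCL5, which draws T cells and monocytes, had 0.18, 0.13 and -0.27 in males and -0.07, 0.26 and 0.00 in females. The arrays of a set agreed in sign in 1 of 6 sets for CCL25, in 2 for CCL27 and in 3 for CCL5. For CCL25 the mean was -0.15 over the first and 0.31 over the turned swap arrays. In all, 3 of the 54 genes (IFITM1, CXCL2 and CCL21) had 1 sign in all 6 sets, each negative, and none was positive in all 6. The arrays of a set agreed in sign in 5 of 6 sets for IFITM1 and CXCL2 and in 2 of 6 for CCL21. For CXCL2 the 1 sign was that of the mean of its 3 probes, which differed among themselves. Over all named genes 3.7% had 1 sign in all sets, 2.13% negative and 1.56% positive.

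Of the 54 genes, 31 stood in 11 runs of neighbours within 3 genes of each other in RefSeq (Sscrofa11.1). Within these runs STAT5A and STAT5B had mean ratios of 0.02 and 0.05, the 4 genes from CCL1 to CCL2 -0.08 to 0.05, the 5 genes from CCL4 to CCL5 -0.08 to 0.07, and IFITM5 beside IFITM1 had -0.02. Probe sequences were not used here, so cross-hybridization within these families was not checked.

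Within each sex the question was whether the strategy acted in male or in female embryos. In male embryos limma found 0 of the 54 genes past the adjusted threshold (0% of all) and 0 with an unadjusted p under 0.05 (2.91% of all). In female embryos it found 0 past the adjusted threshold (0% of all) and 4 with an unadjusted p under 0.05 (4.66% of all). These were IFIT5 at -0.47 ± 0.14, IRF2BP2 at -0.44 ± 0.18, IFITM1 at -0.78 ± 0.74 and OAS1 at 0.46 ± 0.09 (log2 ratio ± SD over 3 sets, with a limma adjusted p of 0.999 for each). The male means of the same genes were 0.10, -0.10, -0.49 and 0.26.

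The difference between the sexes was tested in the same fit. IFIT5 had a male minus female difference of 0.57, with a 95% confidence interval of 0.18 to 0.97 (limma adjusted p = 0.999). It was the 1 gene of the 54 with an unadjusted p under 0.05 (2.1% of all genes), and 0 passed the adjusted threshold (0% of all). On slide 3, the slide that held sets of both sexes, its male set had 0.30 and its female set -0.60. The 2 arrays of that male set differed in sign, with -0.10 on the first and 0.69 on the turned swap array. Over all sets the mean of IFIT5 was -0.37 on the first and 0.002 on the turned swap arrays. The male and female sets did not overlap for 4 of the 54 genes, IFIT5, IFI30, CXCL14 and CCL28, and for 7.72% of all genes. IFI30 had means of -0.18 in male and 0.08 in female sets, CXCL14, a chemokine of epithelia, -0.04 and 0.17, and CCL28, a mucosal chemokine, 0.12 and -0.07. CXCL14 was separated on the mean of its 3 probes only, and on each probe by itself the sexes overlapped. The arrays of a set agreed in sign in 5 of 6 sets for IFIT5, in 4 for IFI30 and in 3 for CXCL14 and CCL28.

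An F test then asked how far each gene varied over the 6 sets beyond its technical spread over paired arrays, which contrasts pools and slides and not mating strategies. Of the 54 genes 17 passed limma's moderated F test at an adjusted p under 0.05, or 31.5%, and 40.9% of all named genes did. They were 7 of 16 effectors, 4 of 7 IRF genes, 1 of 7 CXCL genes, 5 of 18 CCL genes, 0 of 5 STAT genes and not IFNGR1. IFITM1 (limma adjusted p = 2.36e-05) and CXCL16 (3.01e-05) had the largest F, followed by IRF2BP2 (0.000511), ISG20L2 (0.000679), IFIT5 (0.00157), CCL24 (0.00239), IRF2BP1 (0.0025), OAS1 (0.00276) and IRF7 (0.006). The others were CCL5, IRF3, CCL26, CCL3L1, IFIT1, IFI30, OASL and CCL1, with adjusted p of 0.0112 to 0.0487. CCL1 and IFI30, with 1 probe each, did not pass limma's F test adjusted over all probes (adjusted p = 0.102 and 0.0696). CCL1 also did not pass with medians over probes, or without male set 1, 2 or 3 or female set 1 or 3. Without male set 3 the count was 10, all of them among the 17, and the share of all named genes was 32%.

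Per set, the median ratio of the 54 genes was between -0.04 and 0.01, beside -0.02 to 0.00 over all named genes. Between 20 and 29 of the 54 were positive in a set. OAS1 was the highest of the 54 in male set 1 and in all 3 female sets, IRF1, the factor that interferon gamma induces, in male set 2 at 0.50, and CCL26 in male set 3 at 0.30. IFITM1 was the lowest in male set 1 and female set 1, CXCL16 in male sets 2 and 3, IRF2BP2 in female set 2 and IFIT5 in female set 3. In 2 genes, IFITM1 and CXCL16, a set went beyond 2-fold, as it did in 8.01% of all genes. In 5 of the 54 genes 1 set stood apart from the others by Dixon's 95% critical value, and in 7.54% of all genes.

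For 9 of the 54 genes 2 to 4 probes were measured, 27 in all. Their probe means differed by at most 0.32 within a gene, but for 5 of the 9 they differed in sign. The F test on single probes passed for 8 of the 27, in 6 of the 9 genes, and in no gene for every probe. CCL5 passed on the mean of its probes, but 1 of its 3 probes passed by itself, with 0.86 in male set 1 and -0.78 in male set 3, while the other two lay between -0.26 and 0.17. IRF3, the factor that sensors of viral RNA activate, passed with 2 of 4 probes, at -0.57 and -0.68 in male set 3. STAT2 did not pass on its mean, although 2 of its 3 probes did. Those 2 probes had 0.46 and -0.11 in male set 2 and 0.03 and 0.58 in female set 3. Over all 43769 probes 37.7% passed the F test, and 21 of the 72 probes of these genes did.

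Other genes of the pathway were read from a list of 72 interferons, kinases, sensors, inhibitors, antigen-presentation genes, receptors and conceptus interleukins, of which 51 were measured. None passed limma's test for both sexes, for 1 sex or for the difference between sexes (adjusted p of 0.937 or more), while 5 had an unadjusted p under 0.05 for both sexes (5.06% of all genes). The list had 23 positive and 28 negative means and a median of -0.01, and 18 of the 51 passed the F test between sets (40.9% of all genes). B2M, the invariant chain of class I antigen-presenting molecules and itself interferon-inducible, had -1.81, -0.63 and -1.98 in males and -2.34, -0.84 and -0.93 in females. IFITM1 and B2M were both most negative in female set 1, then in male set 3, then in male set 1. TYK2, the kinase of the type I receptor, had 0.14, 0.70 and 0.37 in males and 0.03, 0.72 and 0.28 in females, positive in all 6.

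IFNG, the interferon that the conceptus secretes, had 0.66, -1.25 and -4.44 in males and -1.74, -0.78 and -2.88 in females (mean -1.74 ± 1.76, limma adjusted p = 0.949, and -1.05 without male set 3). The interleukin genes of the elongating conceptus also ran over a wide span, IL1B from -2.66 in male set 3 to 3.95 in male set 1 and IL1B2 from -2.51 in male set 3 to 2.64 in female set 2. Where IFNG reached -4.44, in male set 3, CXCL9, CXCL10 and CXCL11 had -0.05, 0.19 and -0.24, GBP1 had 0.12 and IRF1 had 0.02. Other interferon-inducible genes were lower in that set, with -1.98 for B2M, -0.75 for IFITM1 and -0.35 for IFI30. GBP2 had -0.07 and TAP1 -0.04 there. In that set the first and turned swap arrays differed in sign for GBP1 (-0.11 and 0.35), IRF1 (0.22 and -0.17) and GBP2 (0.12 and -0.26). They agreed in sign for CXCL9, CXCL10, CXCL11, IFITM1 and IFI30. Whether the targets of IFNG followed it was not tested. Whether these genes were detected at all in the embryos cannot be read from ratios.

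**Figure D4:**
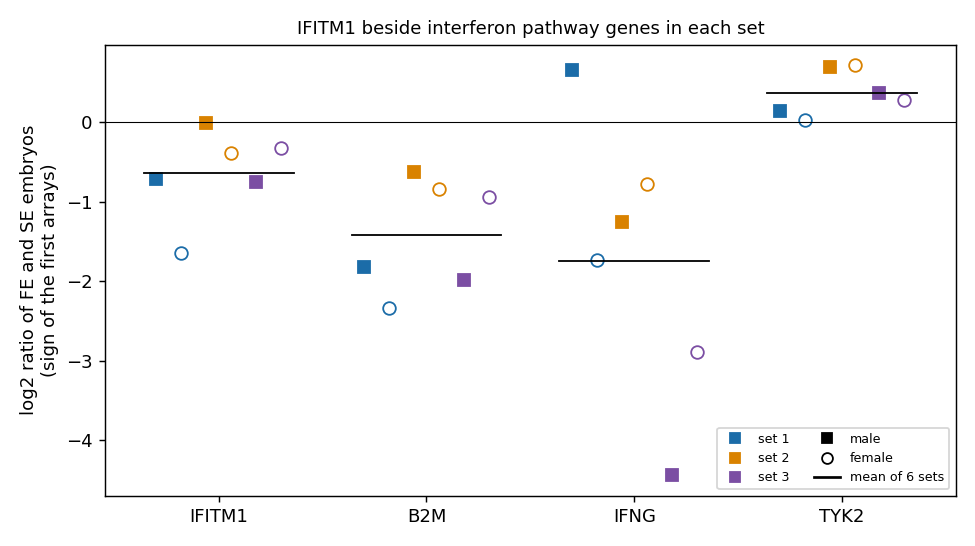
Log2 ratio (y axis, sign of the first arrays) of IFITM1 and of the interferon pathway genes B2M, IFNG and TYK2 in each of the 6 sets (colour, set number; filled squares, male; open circles, female), with the mean of 6 sets as a line. IFITM1 and B2M are lowest in female set 1 at -1.64 and -2.34, and IFNG is lowest in male set 3 at -4.44.

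Over the 12 arrays, the 5 genes whose pattern was most like that of IFITM1, among the other 4873 that passed the F test, were NUMA1 (Pearson's r = 0.952), KCNE3 (0.916), SRPX (0.913), LOC100157017 (0.907) and MAP2K1 (0.903). These were ranked on the arrays themselves and the 2 arrays of a set share their pools, so the values describe likeness and were given no test. All 5 had their lowest ratio in female set 1 and their highest in male set 2, as IFITM1 did.

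Markers of other cell types were set beside these genes. Of 14 blood and immune cell markers 10 were measured, with a median ratio per set of -0.07 to 0.05, and 1 passed the F test between sets. Of 8 uterine markers 8 were measured, with set medians of -0.07 to 0.08 and 1 past the F test. Of trophectoderm markers 6 of 9 passed the F test between sets, of hypoblast markers 3 of 4 measured and of epiblast markers 2 of 4. Their set medians were -0.10 to 0.20, -0.44 to 0.56 and -0.05 to 0.18. Among all named genes 40.9% passed this test, and with so few markers per list these counts do not rank the cell types. In male set 3, where CXCL16 was lowest, the hypoblast markers APOA1 and RBP4 had -1.30 and -1.32 and APOC3 and GATA6 had 0.63 and 0.41, so their median lies between opposite values. The trophectoderm keratin genes KRT8 and KRT18 had -1.73 and -1.94 there. Some other trophectoderm markers lay nearer to 0 there, with 0.28 for GATA2, 0.12 for GATA3, 0.07 for ELF5, -0.03 for EOMES and -0.16 for CDX2. Values for TEAD4 and TFAP2C are not given here. The median of the 9 trophectoderm markers in that set was -0.03. For KRT18 the arrays of a set agreed in sign in 1 of 6 sets. The part of any cell type in the ratios of these genes was not tested.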

How the data were processed

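The authors deposited 1 log2 ratio for each probe of each two-colour Agilent array. Amplified RNA was labelled with Cy3 and Cy5, per the labels' protocols. The log base was read from the values, which run from -4.99 to 5.97 with array medians within 0.0108 of 0. How arrays were scanned, background-corrected and normalized is not given in the sources used here. Of 43794 probes, 25 with a missing value were left out. The platform's gene table names 18110 of the rest, with 228 symbols updated from RefSeq. Gene values are means over a gene's probes.

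Swap arrays were turned in sign because deviations of first and swap arrays from their own means had r = -0.728 over sets and probes. In the contrasts of strategy and sex each set was 1 replicate. Their p-values rest on the spread between these sets, which shared sows between the sexes. The means of 11905 genes entered lmFit and eBayes of limma 3.58.1 (R 4.3.3) with a mean for each sex. Contrasts were both sexes against 0, each sex against 0 and male minus female. The F test between sets used 12 arrays with a term for array role, and its p-values rest on the spread between the 2 arrays of a set. Benjamini-Hochberg adjustment was over all genes, at a threshold of 0.05. Both tests were tested on simulated data, drawn without shared sows, slide or dye effects, so dependence between sets was not checked. The members, lists and tests were chosen with earlier results of these data known. Per class, values are given for the 3 genes of smallest p for both sexes and the 3 of largest F. Outside the classes the rule named the 2 list genes of smallest p and of largest F with IFNG, IL1B and B2M. The other members given with values were chosen after their values were seen.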

Additional observations from a re-analysis of the deposited data

Results flagged for a closer look

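In 5 of the 54 genes 1 set lay apart from the other 5 by more than Dixon's 95% critical value, where chance flags about 1 group in 20 and 7.54% of all named genes had such a set. CXCL16 had -1.32 in male set 3 beside -0.40 to 0.09 in the others. IRF3 had -0.40 in male set 3 beside 0.01 to 0.20. STAT6 had -0.38 in male set 2 beside -0.08 to 0.07. CCL11, an eotaxin, had 0.23 in male set 2 beside -0.18 to -0.08, and CXCL10 had -0.14 in male set 1 beside 0.13 to 0.25. In each of the 5 genes the set apart was a male one, but how often it was male over all named genes was not counted. Of these genes, CXCL16 and IRF3 passed the F test between sets.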

How the results depend on the processing

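None of the 54 genes passed limma's test for both sexes, for 1 sex or for the difference between sexes under any alternative but 1. With the swap arrays not turned, which sets aside the relation between the 2 arrays of a set, 19 of them passed for both sexes, 12 for males and 6 for females (4547, 2329 and 1752 of all genes), while 0 of them and 0 of all genes passed the F test between sets. There B2M had 0.22, CCL21 0.15, CCL25 -0.23, CCL26 -0.15, CCL27 0.12, CCL5 -0.12, CXCL16 0.016, IFNG 0.22, IRF2 0.26, IRF2BP2 0.14, IRF7 -0.34 and STAT6 0.055, each opposite in sign to the ratio reported. With first arrays alone 5 of all genes passed for both sexes, and CCL21 had 0.055, CCL25 -0.15, CCL26 -0.083, CCL27 0.018, CCL5 -0.077, IRF2 0.15 and IRF7 -0.23. With swap arrays alone 2 of all genes passed for both sexes, 1 for males and 1 for females, and IFIT5 had 0.0020, IFNGR1 0.040, IL1B -0.19, IL1B2 -0.15, IRF2BP1 0.36, IRF9 0.11, ISG20L2 -0.024 and STAT2 -0.018. With array weights CCL24 had 0.031 and IFNGR1 0.0050. With single probes 2 of 43769 passed for both sexes, none of them of these genes, and the CCL5 probe of smallest p had -0.075. The cause of these changes was not tested. With each set left out in turn the F test passed for 10 to 18 of the 54 genes, and the ratio ran from -0.22 to 0.041 for CCL24, -0.012 to 0.14 for CCL26, -0.011 to 0.11 for CCL5, -0.15 to 0.011 for CXCL9, -0.059 to 0.030 for IFNGR1, -0.87 to 0.78 for IL1B, -0.65 to 0.62 for IL1B2, -0.12 to 0.032 for IRF2BP1, -0.084 to 0.13 for ISG20L2 and -0.092 to 0.0065 for STAT6. IFITM1 stayed negative and OAS1 positive under every alternative, at -0.76 to -0.42 and 0.20 to 0.46 with sets left out. Centred and scaled arrays, robust eBayes, medians over probes and the slide as a block changed no direction of a named gene and no call for both sexes, 1 sex or the difference. Set numbers were not used to pair the sexes: the labels do not say that same-numbered sets share sows, and the deviations of same-numbered male and female sets had r of 0.05, 0.41 and 0.26. Sets 2 and 3 were each most like their own number, but male set 1 was slightly more like female set 3 (0.06). With the set number as a replicate block, random or fixed, 0 of the 54 and 0 of all genes passed. Signal over background was not analysed, so how far dim probes limit these ratios is unknown.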

Other observations

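TAP1, which carries peptides to class I molecules and is induced by interferon gamma, was chosen after its values were seen. It had 0.70, 0.85 and -0.04 in males and -0.27, 0.62 and -0.44 in females, and passed the F test between sets. Its 3 values above 0.6 came from sets where B2M was at -1.81, -0.63 and -0.84.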
